A study of Homo sapiens with 2 samples.

Results

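The vacuolar ATPase (V-ATPase) is described here in C4-2 prostate cancer cells through the 7 genes of the deposited table whose names begin with ATP6V or ATP6AP, out of 1947 genes in that table. They encode 4 subunits of the membrane sector V0 (ATP6V0A1, ATP6V0B, ATP6V0D1 and ATP6V0E1), 2 subunits of the cytosolic sector V1 (ATP6V1G1 and ATP6V1H) and the accessory protein ATP6AP1. The members were chosen by name. Earlier results of these data were known when they and the gene lists below were chosen. The table, however, holds only genes that the authors' Cuffdiff test separated between the libraries at a p-value under 0.05, so every gene in it differs in these libraries and that fact is no finding about the V-ATPase.

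The series consists of 2 libraries of polyadenylated RNA from C4-2, a long-established line of human prostate cancer cells, at passage 10 to 15 per the labels. The culture of the control group was given vehicle, and that of the treated group ebastine, an antihistamine that blocks the histamine H1 receptor and that the series title links to EZH2. Neither the concentration nor the length of exposure is given in the sources used here. With 1 library in each group there are no replicates, no error can be put on any difference, and no p-value for the treatment was computed. In RNA from whole cultures a change in the number of cells of one kind and a change in RNA per cell cannot be told apart.

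The V-ATPase is a rotary pump that uses ATP to move protons into lysosomes, endosomes, the Golgi and secretory vesicles. Its V1 sector hydrolyses ATP, and its V0 sector carries the protons across the membrane. Acid lysosomes need it for their hydrolases to work, and it also takes part in nutrient signalling to mTORC1 through the Ragulator complex. The transcription factors TFEB, TFE3 and MITF are known to switch on lysosomal and V-ATPase genes together through an E-box-like element, the CLEAR element, near the transcript start.

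The stretches just upstream of the transcript start are shown for the listed members with an entry in the RefSeq promoter table, because the members were all higher with ebastine and this is where a CLEAR element would lie. Each is the 100 bases before the RefSeq start (build GRCh38.p14), 5′ to 3′ on the strand of the gene, and capitals mark matches to CACGTG or TCACGTG on either strand. The windows are chr16:67481158-67481257 on the minus strand for ATP6V0D1, chr9:114587669-114587768 on the plus strand for ATP6V1G1, chr1:43974860-43974959 on the plus strand for ATP6V0B, chr17:42458778-42458877 on the plus strand for ATP6V0A1 and chrX:154428577-154428676 on the plus strand for ATP6AP1. The promoter table had no entry for ATP6V0E1 or ATP6V1H.
ATP6V0D1: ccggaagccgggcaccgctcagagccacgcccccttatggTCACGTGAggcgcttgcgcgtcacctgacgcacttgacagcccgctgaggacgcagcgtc
ATP6V1G1: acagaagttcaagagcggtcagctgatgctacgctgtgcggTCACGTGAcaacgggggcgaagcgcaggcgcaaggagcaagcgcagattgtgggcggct
ATP6V0B: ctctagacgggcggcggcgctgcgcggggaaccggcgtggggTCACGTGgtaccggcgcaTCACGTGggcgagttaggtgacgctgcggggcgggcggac
ATP6V0A1: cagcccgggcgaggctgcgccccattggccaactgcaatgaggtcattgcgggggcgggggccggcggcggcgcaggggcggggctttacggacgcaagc
ATP6AP1: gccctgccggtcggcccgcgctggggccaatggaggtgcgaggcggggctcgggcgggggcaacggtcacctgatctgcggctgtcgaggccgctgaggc

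Over the whole window of 250 bases before to 50 bases after the start, 3 of the 5 listed members with an entry held CACGTG, and the same 3 held TCACGTG. The shorter motif is its own reverse complement, and the longer one contains it. In ATP6V0D1 it began 59 bases upstream and in ATP6V1G1 58 bases upstream, in both with a T before and an A after it, so that TCACGTG was read on both strands. ATP6V0B held a pair of matches, beginning 57 and 39 bases upstream. ATP6V0A1, with the highest ratio of the members, and ATP6AP1 held neither motif, which says only that these letters are not in this window.

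Of all genes in the promoter table, counted over any of their starts, 8.77% held CACGTG and 4.49% held TCACGTG. Counted over single promoters, the shares were 7.26% and 3.71%. Among the 20 V-ATPase genes that are not listed, 13 had an entry, and 1 of them, ATP6V0E2, held both motifs, in its first 2 starts. ATP6V1A, ATP6V1B2 and ATP6V1C1 had no entry and were not searched. The unlisted genes have no value here, so this count does not show whether the motif goes with a higher level. Among listed genes averaging 1 FPKM or more and with an entry, TCACGTG stood in 58 of 534 genes that were higher with ebastine (10.9%) and in 41 of 751 that were lower (5.46%). It stood in 5 of the 11 listed lysosomal hydrolase genes with an entry and in 2 of 6 listed lysosomal membrane genes. The GC box core GGGCGG was in 4 of the 5 members, against 48.3% of all genes but 80.0% of the listed genes that were higher and 77.0% of those that were lower, so the members' share is that of the listed genes. CCAAT was in 2 of the 5, against 39.7% of all genes, 44.8% of the higher and 53.5% of the lower listed genes. These are matches of letters, counted without a test, and binding was not measured.

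**Figure D1:**
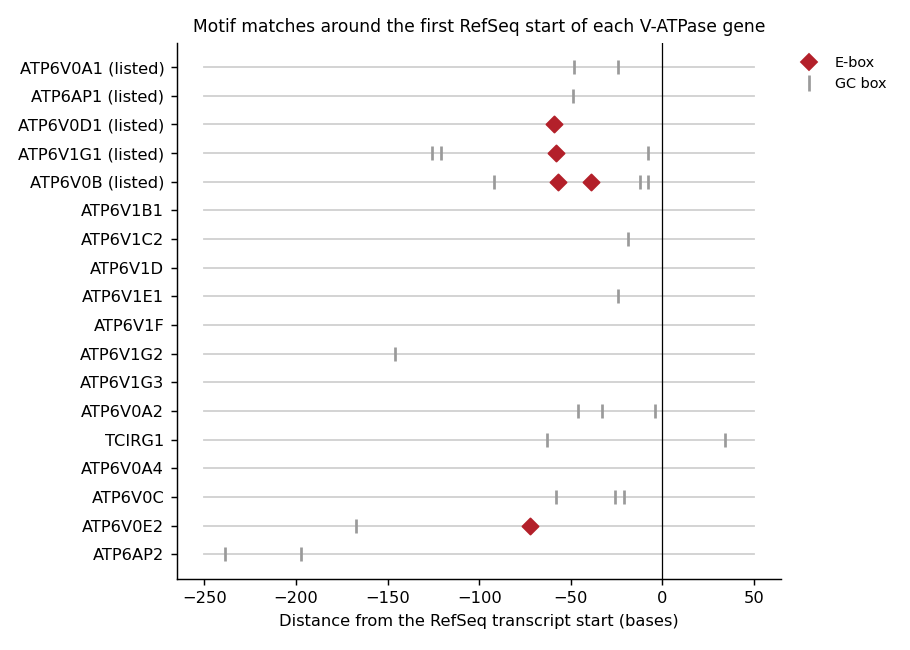
E-box core matches (diamonds) and GC box core matches (bars) on either strand, by distance in bases from the first RefSeq start of the 18 V-ATPase genes with an entry in the promoter table; the upper 5 are in the deposited table. E-box core (CACGTG) matches in ATP6V0D1, ATP6V1G1 and ATP6V0B lie between 59 and 39 bases upstream. ATP6V0E2 is the other gene with a CACGTG match at its first start.

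Levels are in FPKM, which counts fragments for each kilobase of a transcript and each 1000000 fragments mapped, so that levels of different genes can be set side by side. The ratio is log2((FPKM in ebastine + 1)/(FPKM in vehicle + 1)), and folds are this ratio without the logarithm; the added 1 FPKM understates the change of low genes. Every listed V-ATPase gene was higher in the ebastine library, 7 of 7, beside 43.0% of the 1768 listed genes averaging 1 FPKM or more. The ratios were small: with 1 FPKM added to each value, ebastine lay 25.5% to 50.2% higher. The median log2 ratio was 0.43 (1.34-fold), and the SD over the 7 genes was 0.09. The p-value limit leaves no ratio near 0 in the table, so it bounds the low end of this range. The median over all 1768 listed genes was -0.32, and the members' median lay 0.75 above it. Most listed genes were lower and none lie near 0, so that median falls among the lower genes. The gap is therefore no finding about the V-ATPase. Among the 761 listed genes that were higher, the median was 0.42 (1.34-fold), the size of the V-ATPase median.

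**Figure D2:**
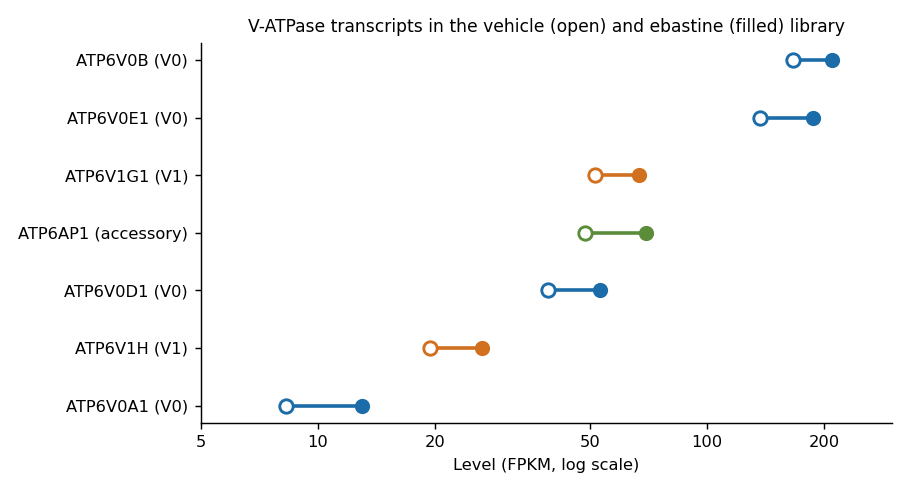
FPKM of each listed V-ATPase gene on a log scale, with the vehicle library as an open circle and the ebastine library as a filled one (1 library each, no error bars), coloured by sector. All 7 filled circles lie to the right of the open ones, from ATP6V0A1 at 8.31 and 13.0 FPKM to ATP6V0B at 167 and 209.8 FPKM.

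Within V0, the a subunit forms the paths by which protons reach and leave the rotor and carries the signals that place the pump in a compartment. ATP6V0A1, one of its isoforms, measured 8.31 FPKM in the vehicle library and 13.0 FPKM in the ebastine library. This was the lowest level of the 7 in both libraries. Its difference of 4.68 FPKM was the smallest of the 7, while its ratio was the largest, a log2 ratio of 0.59 (50.2% higher with 1 FPKM added to each value) and 0.64 with no pseudocount. Among its 100 nearest genes in mean FPKM, 39 were higher with ebastine and 2 had a higher ratio. The other a isoforms, ATP6V0A2, TCIRG1 and ATP6V0A4, are not among the listed genes.

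The rotor of V0 is a ring of proton-carrying c-type subunits. ATP6V0B encodes its c″ member and measured 167 FPKM in the vehicle library and 209.8 FPKM in the ebastine library. It was the most abundant listed V-ATPase transcript per length in both libraries and had the smallest ratio, a log2 ratio of 0.33 (25.5% higher with 1 FPKM added to each value), for a difference of 42.8 FPKM. Among its 100 nearest genes in mean FPKM, 41 were higher with ebastine, and 35 of these had a higher ratio than ATP6V0B. ATP6V0C, which encodes the c subunit of the same ring, is not among the listed genes.

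The d subunit sits on the ring and joins it to the central stalk of V1. Its widely expressed isoform ATP6V0D1 measured 39.2 FPKM in the vehicle library and 53.0 FPKM in the ebastine library, a fold of 1.34 and a log2 ratio of 0.43. ATP6V0E1, a small membrane subunit, measured 137 FPKM in the vehicle library and 187 FPKM in the ebastine library, a fold of 1.36 and a log2 ratio of 0.44. RefSeq lists 4 pseudogenes named after ATP6V0E1, among which its reads may be split. The second isoforms of these subunits, ATP6V0D2 and ATP6V0E2, are not in the table.

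In V1, both listed subunits belong to the stator and regulatory parts. ATP6V1G1, which pairs with subunit E in the outer stalks that hold V1 still, measured 51.5 FPKM in the vehicle library and 66.9 FPKM in the ebastine library, a fold of 1.29 and a log2 ratio of 0.37. It has 7 named pseudogenes in RefSeq, so its reads too may be split. ATP6V1H, a regulatory subunit needed for ATP hydrolysis by the joined pump and known to silence free V1, measured 19.4 FPKM in the vehicle library and 26.4 FPKM in the ebastine library. Its fold was 1.34 and its log2 ratio 0.42. Subunits A and B, which form the catalytic head (ATP6V1A, ATP6V1B1 and ATP6V1B2), subunits C, D, E and F, and the other G isoforms, ATP6V1G2 and ATP6V1G3, are not among the listed genes.

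ATP6AP1, also called Ac45, is a membrane glycoprotein that guides assembly and trafficking of the pump. It measured 48.7 FPKM in the vehicle library and 69.6 FPKM in the ebastine library, a fold of 1.42 and a log2 ratio of 0.51, second to ATP6V0A1. Among its 100 nearest genes in mean FPKM, 41 were higher with ebastine, and 18 of these had a higher ratio than ATP6AP1. The other accessory protein, the (pro)renin receptor ATP6AP2, is not in the table.

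The deposited list thus holds 7 of the 27 human V-ATPase genes on the list used here, 4 of 11 for V0, 2 of 13 for V1 and 1 of 3 accessory genes. That is 25.9% of the list, beside 14.2% of the 13714 genes the authors tested, of which 6.32% passed and were higher. How many of the 27 the authors tested is unknown, so these shares have different denominators. The 20 others have no row of their own in the table and were not analysed. For 1 of them, the V0 gene RNASEK, the table holds a readthrough locus that joins it to its neighbour, RNASEK-C17orf49. That row measured 64.3 FPKM in the vehicle library and 84.5 FPKM in the ebastine library, a log2 ratio of 0.39. Its reads cannot be assigned to either gene here, and the row is not counted among the members. Near the levels of the 7 members, the smallest fold that any of the 100 nearest listed genes showed was about 1.22, so a subunit that differed by less may go unseen in such a table. The medians above describe the listed members and not the pump as a whole.

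Against a limit of 1.5-fold, ATP6V0A1 was higher and the other 6 were not. That is 1 of 7, beside 9.67% of the 1768 listed genes, or 171 of the 761 higher ones. The members' count turns on that limit. ATP6V0A1 lay just past it. At a limit of 25% higher all 7 counted, beside 36.5% of the 1768, or 645 of the 761 higher ones. With a pseudocount of 5 FPKM ATP6V0A1 fell short, leaving 0. Scaling moved it the other way: with ebastine values multiplied by 1.27, which centres on 0 the median ratio of genes averaging 10 FPKM or more, 7 of 7 passed beside 40.6% of listed genes. That rescaling shifts the log2 ratios by 0.35, and it turns the 171 higher and 328 lower genes at 1.5-fold over the table into 718 and 121. Making the upper quartiles equal, a shift of 0.21, turned them into 431 and 184, with 5 of the 7 members past the limit beside 24.4% of listed genes. The 718 and the 431 were among 866 and 761 higher genes. After centring, the members' median was 0.77 and lay 0.78 above the median of all listed genes. This gap again depends on the mix of lower and higher genes in the table.

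**Figure D3:**
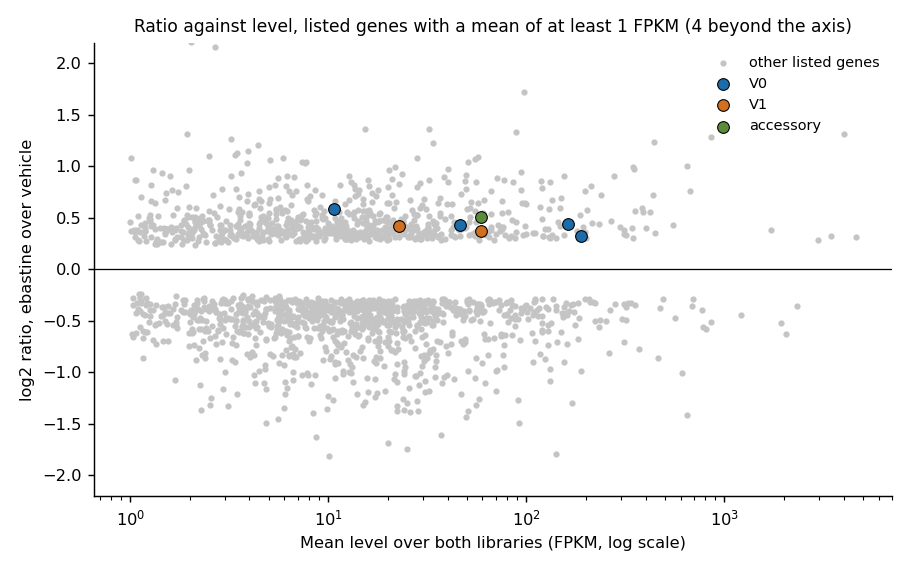
log2 ratio of ebastine over vehicle against mean FPKM (log scale) for the 1768 listed genes averaging 1 FPKM or more (4 lie beyond the axis), with the V-ATPase genes coloured by sector. Genes in the empty band around 0 are not in the table, and the V-ATPase genes lie above it, between 0.33 and 0.59.

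In the authors' deposited table, 3 of the 7 members, all of them higher, had a q-value (a p-value adjusted over the genes tested) under 0.05. Of the 1768 listed genes, 15.2% had such a q-value and were higher, which is 269 of the 761 higher genes. The q-values there were 0.00334 for ATP6V0A1, 0.0184 for ATP6AP1 and 0.0397 for ATP6V0E1. The authors' deposited table gave ATP6V0D1 0.0638, ATP6V1H 0.0732, ATP6V1G1 0.126 and ATP6V0B 0.238. Both V1 members were thus outside the limit, and the V0 members were divided, 2 on each side. A q-value from 1 library per group compares the libraries and carries no information on variation between cultures.

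The proportions among the listed transcripts were close in the 2 libraries. Summed FPKM of the 4 V0 genes went from 352 to 463 and that of the 2 V1 genes from 70.8 to 93.2, a ratio of 1.32 for each sector. Over all 7 the sum went from 471 to 626 FPKM. ATP6V0B made up 35.4% of that sum with vehicle and 33.5% with ebastine, the largest shift of any member. ATP6V0E1 made up 29.1% and 29.9%, and ATP6V0A1 1.76% and 2.07%. Per length, ATP6V0B was 20.1 times as abundant as ATP6V0A1 with vehicle and 16.2 times with ebastine. The order of levels was the same in both libraries except that ATP6AP1 lay below ATP6V1G1 with vehicle and above it with ebastine.

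The reported loci matched single genes. In hg19, counted from 1, they were chromosome 17, 40610862 to 40674597 (ATP6V0A1), chromosome X, 153656978 to 153664862 (ATP6AP1), chromosome 5, 172410763 to 172461900 (ATP6V0E1), chromosome 16, 67471917 to 67515089 (ATP6V0D1), chromosome 8, 54628103 to 54755871 (ATP6V1H), chromosome 9, 117349994 to 117361152 (ATP6V1G1) and chromosome 1, 44440602 to 44443972 (ATP6V0B). Each spanned nearly the length of its RefSeq gene, for example 63.7 kb for ATP6V0A1 in both and 3.37 against 3.34 kb for ATP6V0B. None overlapped another listed locus, and the members lie on 7 different chromosomes.

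The listed genes most like each member were taken as the 2 at the smallest distance in log2(FPKM + 1) over the 2 libraries, which says only that their levels in these libraries are close. For ATP6V0A1 they were RILP, a lysosomal effector of the GTPase RAB7 (8.32 and 12.8 FPKM, distance 0.02), and the sterol carrier STARD4 (8.13 and 13.5 FPKM, distance 0.06). For ATP6V1H they were the laminin chain LAMA3 and the autophagy protein GABARAPL1 (19.05 and 25.7 FPKM, distance 0.04). TAF13 and another member, ATP6V1G1, lay nearest to ATP6AP1. The nearest to ATP6V0D1 were RBCK1 and SEL1L3, to ATP6V0E1 DHRS7 and CUTA, to ATP6V1G1 C14orf1 and PTRH2, and to ATP6V0B RHOC and BRI3.

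Genes whose products work with the pump were counted in the same way. None of the 12 V-ATPase assembly factors and regulators on the list used here, such as VMA21, DMXL1 and WDR7, was in the table. That list does not hold RILP, named above, which was in the table. None of TFEB, TFE3, MITF and TFEC was in the table either. The level of the factors that act on CLEAR elements thus has no value here. Of 19 genes of Ragulator and lysosomal mTORC1 signalling 4 were listed, all higher, with a median log2 ratio of 0.36 and 0 of them past 1.5-fold. RRAGD, a Rag GTPase, stood at 3.65 and 5.66 FPKM (1.43-fold), and the folliculin gene FLCN at 13.2 and 17.5 FPKM (1.30-fold). RRAGB and LAMTOR5 were 1.27-fold and 1.23-fold higher. Of 15 endolysosomal channels and exchangers 3 were listed. CLCN7, the lysosomal chloride and proton exchanger, stood at 6.72 and 9.46 FPKM (1.36-fold), CLCN3 was 1.22-fold higher, and SLC9A9 was at 0.149 and 0.537 FPKM.

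Of the hydrolases and membrane proteins of the lysosome, fewer than 1 in 2 were listed, and the others have no value here. The share to read these lists against is 14.2% listed, of the genes the authors tested. Of the 1768 listed genes, 43.0% were higher and 9.67% higher by 1.5-fold. Those 9.67% are 171 of the 761 higher genes. Of 46 lysosomal hydrolases 18 were listed, and of the 17 averaging 1 FPKM or more 16 were higher and 1 lower, 4 of them higher by 1.5-fold, with a median log2 ratio of 0.37. The protease TPP1 stood at 16.8 and 27.0 FPKM (1.57-fold) and prosaposin, PSAP, at 307 and 464 FPKM (1.51-fold). NEU1 and CTSD had the highest ratios, 0.96 and 0.68, but the NEU1 locus lies on an alternative haplotype and that of CTSD spans 295 kb, so their reads can be split between copies or shared with other genes. The protease CTSC, at 34.2 and 24.5 FPKM, was the only gene of this list against this direction. Lysosomal hydrolases in the deposited table but outside this list went both ways, named here after their values were seen. CTSL2 (8.38 and 4.57 FPKM), GGH (45.6 and 24.2 FPKM) and ARSG (7.78 and 5.37 FPKM) were lower. PLBD2 (8.49 and 11.4 FPKM) and MAN2B2 (5.08 and 6.42 FPKM) were higher. Of 22 lysosomal membrane proteins 9 were listed, and the 8 averaging 1 FPKM or more were all higher, 4 by 1.5-fold, with a median of 0.58. NPC2, a cholesterol carrier of the lysosome lumen grouped with this list, stood at 77.9 and 121 FPKM (1.55-fold) and the mannose 6-phosphate receptor IGF2R at 17.0 and 26.1 FPKM (1.51-fold). Among those 8, GPNMB and NPC1 had the highest ratios, 2.70 and 0.77. LAMP3, which averaged less than 1 FPKM, stood at 0.355 and 1.47 FPKM, a log2 ratio of 0.87. The differences between these lists and the V-ATPase were not tested.

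Other ATP-driven pumps and ATP synthase were looked at too. None of 16 genes of the mitochondrial F-type ATP synthase, the rotary relative of the V-ATPase, was in the table. The plasma membrane calcium pump ATP2B1 stood at 11.3 and 18.8 FPKM (1.61-fold), and the calcium pump ATP2A3 was 1.21-fold higher from 0.908 FPKM with vehicle.

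**Figure D4:**
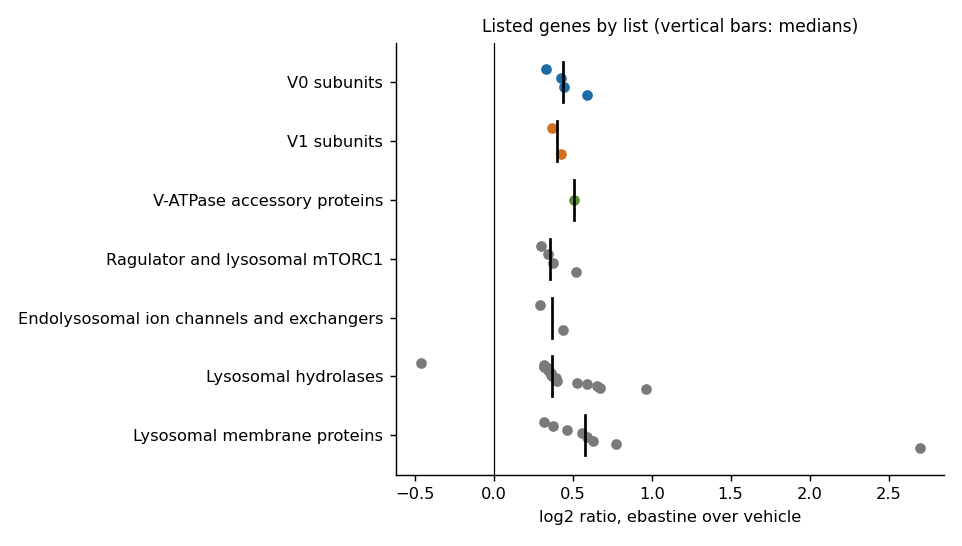
log2 ratio of ebastine over vehicle for each listed gene averaging 1 FPKM or more, by list, with the median of each list as a vertical bar. All V-ATPase genes and all but 1 of the other genes plotted lie above 0, and GPNMB stands apart at 2.70.

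The labelled cell type was checked against its markers. Of 14 prostate luminal markers 8 were listed, beside 14.2% of the genes the authors tested. How many of the 14 the authors tested is unknown, so these shares too have different denominators. With ebastine 4 were higher and 4 lower, beside 43.0% of the 1768 listed genes higher. Past 1.5-fold, 3 were higher and 2 lower. KLK3 stood at 2476 and 1599 FPKM, and FOLH1 at 495 and 840 FPKM. None of 11 markers of macrophages and osteoclasts, cells rich in V-ATPase, and none of 11 basal, stromal and endothelial markers was listed, so these have no value here. Genes outside these lists that such cells also express were in the table, named here after their values were seen. The osteoclast phosphatase ACP5, counted above among the hydrolases, stood at 0.177 and 0.59 FPKM, and GPNMB at 3.004 and 24.9 FPKM. Of the mesenchymal and matrix genes, FN1 stood at 32.1 and 45.4 FPKM and COL6A1 at 42.4 and 56.7 FPKM. COL5A1 stood at 0.943 and 2.32 FPKM. VIM, at 9.22 and 7.21 FPKM, and LOX, at 3.46 and 1.05 FPKM, were lower with ebastine. So were CXCL12, at 29.4 and 13.5 FPKM, and FBLN1, at 6.25 and 3.5 FPKM. These few genes give no direction for such genes as a set. Their part in the V-ATPase values was not tested.

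Across the settings tried, each member was higher with ebastine. ATP6V0A1 ranged in log2 ratio from 0.43 with a pseudocount of 5 FPKM to 0.91 after centring, ATP6AP1 from 0.47 to 0.85 and ATP6V0B from 0.32 to 0.67. The rescalings tried multiply the ebastine values by 1.001 to 1.27. Neither they nor a pseudocount added to both values could have turned a higher gene. ATP6V0B had the lowest ratio in each of the settings plotted. ATP6V0A1 had the highest, except with a pseudocount of 5 FPKM, where it stood at 0.43 and ATP6AP1 at 0.47.

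**Figure D5:**
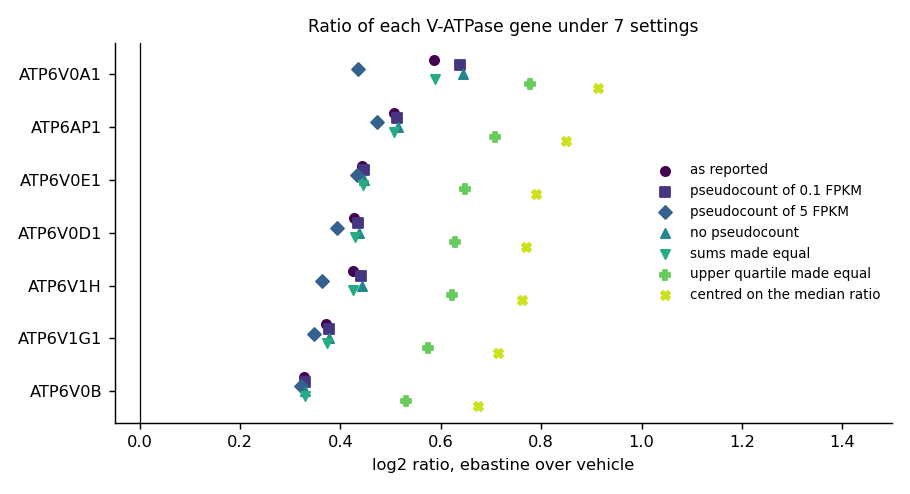
log2 ratio of ebastine over vehicle of each V-ATPase gene under 7 settings of pseudocount and scaling, 1 marker for each setting. No marker lies below 0.32, and the rescalings to equal upper quartiles and to a centred median move all 7 genes to the right.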

How the data were processed

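Per the submitters' processing notes, TopHat2, Cuffdiff and hg19 were used. For versions, gene models, strand, scaling and multi-mapping no setting is given in the sources used here. The deposited file gives FPKM values that the authors' Cuffdiff estimated, with the authors' log2 fold change, the authors' test score (not used), and the authors' p-value and q-value, for genes with a p-value under 0.05. The number of genes tested, 13714, was recovered from q-value times rank over p-value (13701.2 to 13714.1). Depth is unknown, since the file holds no counts, and no counting interval was given. Locus starts were converted from 0-based: the span then equalled the RefSeq span for 79 of 1725 genes, against 28 otherwise. The median level was 10.5 FPKM with vehicle and 9.49 FPKM with ebastine.

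With Python 3.11.15, pandas 2.3.3 and numpy 2.4.6, ratios with a pseudocount of 1 FPKM, counts over genes averaging 1 FPKM or more, medians over 14 lists and motif matches in the RefSeq promoter table (1384 of 1947 listed genes matched by symbol) were computed, and the ratio and count functions were tested on simulated data. Members and lists were chosen with earlier results of these data known. Named genes were all members and 2 nearest genes per member. Each related list gave up to 4 genes with the largest ratio on the side of its median and at most 2 on the other. Markers, LAMP3, hydrolases outside the hydrolase list and genes listed by name without a value are outside this rule. Alternatives changed the pseudocount, the scaling, the minimum mean, the fold limit and the q-value limit. Among P-type pumps, results for 1 listed gene and counts over that list are not reported here.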

Additional observations from a re-analysis of the deposited data

How the results depend on the processing

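No paired analysis was possible because each group held 1 library, and no replicate could be left out. The members' median log2 ratio of 0.43 became 0.44 with a pseudocount of 0.1 FPKM, 0.39 with 5 FPKM, 0.77 after centring on the median ratio, 0.63 with equal upper quartiles and 0.51 over the 3 genes with an authors' q-value under 0.05; it was 0.44 with no pseudocount, a setting chosen after seeing the data. Their summed FPKM with ebastine, 626, became 796 after centring, 721 with equal upper quartiles and 626 with equal sums. The count of 1 member at least 1.5-fold higher became 0 with a pseudocount of 5 FPKM, 7 after centring, 5 with equal upper quartiles, and 7 and 0 at limits of 25% higher and 2-fold. Of 31 listed genes averaging 1 FPKM or more in the Ragulator, channel, hydrolase and membrane lists, 8 were at least 1.5-fold higher. That stands beside 9.67% of all 1768 listed genes, or 171 of the 761 higher ones. The 8 became 30 after centring (beside 40.6%), 15 with equal upper quartiles (24.4%), and 25 and 1 at those limits (36.5% and 1.81%). No ratio or median changed sign, but this was fixed in advance. A pseudocount added to both values, or a factor of 1.001 or more on ebastine, cannot turn a higher gene. The scaling that describes the cultures best was not tested, since genes outside the table have no value.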
